A study of Mus musculus with 20 samples.

Results

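The genes of the proteasome were followed in the livers of mice fed a high-fat diet (HFD) and exposed to polychlorinated biphenyls (PCBs). Genes were taken by symbol: protein-coding genes whose name begins with Psma, Psmb, Psmc, Psmd, Psme, Psmf or Psmg and whose counts summed to 10 or more over all libraries. Of the 21780 genes in the count table, 50 carried such a name and 49 of these were among the 15522 genes tested. The other one, Psmb11, the catalytic subunit of the thymus, had 1 count in all libraries together and was not tested. Of the 49, 48 are subunits, regulators or assembly factors of the proteasome, and Psmc3ip, a cofactor of meiotic recombination, shares only the prefix.

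RNA was sequenced from the livers of 20 male C57BL/6J mice, 5 in each of 4 groups, all fed a diet with 42% of calories from fat for 12 weeks from 8 weeks of age. At 10 weeks of age each mouse received a single oral gavage. HFD control mice received the corn oil vehicle, HFD + Aroclor mice Aroclor 1260 (a commercial mixture of largely non-dioxin-like PCBs) at 20 mg/kg, HFD + PCB 126 mice the dioxin-like congener PCB 126 at 20 µg/kg, and HFD + Aroclor + PCB 126 mice both at these doses, called the combined exposure here. The methods give the exposure as 10 weeks and the sample labels as 12 weeks, and every group, controls included, was on the HFD, so no comparison with a low-fat diet can be made. Whole liver was sampled, and a change in the mix of cells cannot be told apart from a change of RNA within cells.

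The proteasome is the main protease of the cytosol and nucleus and degrades proteins that carry ubiquitin chains. Its core particle (20S) is a barrel of outer rings of alpha subunits (Psma genes) and inner rings of beta subunits (Psmb genes), 3 of which cut proteins. A regulatory particle (19S), made of a ring of ATPases (Psmc genes) and of non-ATPase subunits (Psmd genes), binds ubiquitin, removes it and feeds the unfolded protein into the barrel. Activators (Psme genes), an inhibitor (Psmf1) and assembly chaperones (Psmg genes and some Psmd genes) complete the family. In many cell types the transcription factor Nfe2l1 raises all subunit genes together when proteasome activity falls short, and interferon replaces the catalytic beta subunits by the immunosubunits Psmb8, Psmb9 and Psmb10.

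The libraries held 21836506 to 36854887 counts (median 30005986.5), so that a gene at 1 CPM had about 20 counts or more in each library. CPM is the count per 1000000 counts of the library, with the library total scaled by its TMM normalization factor. All 6 hepatocyte markers were high, with a summed level of 83701.9 to 118792.7 CPM in every group together. The libraries differed in how counts followed the GC content of the transcripts. A slope over GC was fitted in each library to log2 CPM less the gene's mean over all libraries. It is therefore relative to the average library, and a slope near 0 does not mean that counts were free of GC content. Per 10 points of GC the slope was 0.22 ± 0.12 (SD, n = 5) in HFD control and 0.00099 ± 0.066 in HFD + Aroclor. In HFD + PCB 126 it was 0.095 ± 0.17 and in the combined exposure −0.31 ± 0.15. The difference from control was −0.53 for the combined exposure (exact permutation test over the 252 splits, p = 0.00794, the smallest possible), −0.21 for Aroclor (p = 0.0159, exact) and −0.12 for PCB 126 (p = 0.222, exact). The index numbers of the libraries run through the groups in order and the sequencing run of each library is not given, so that the order of the libraries and the exposure cannot be told apart. Values corrected for GC content, by removal of a smooth trend over GC from each library, are therefore given beside the results of the combined exposure.

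In HFD control liver the proteasome genes together took 0.457% ± 0.0146 of all counts (SD, n = 5). Per exonic length, in transcripts per 1000000 (TPM), Psma6 of the alpha ring was the highest at 349.9 ± 24.1 and Psmb4 of the beta ring the next at 240.6 ± 16.8. The ATPase gene Psmc5 followed at 191.1 ± 5.75. Below these, the genes of the core and of the regulatory particle reached down to 38.4 TPM (Psmd11), although they build particles of fixed composition. The exception was Psma8, the subunit of the testis, at 1.33 ± 0.565 TPM. The order depends on the length used. Divided by the longest transcript instead, Psma6 stood at 338.5 ± 24.6 and Psmb4 at 324.1 ± 22.9 TPM. Psmc5 was then at 156.1 ± 4.57 TPM, below Psmb6 (265.5 ± 32.4), Psma4 (228.3 ± 23.9) and Psma1 (225.8 ± 14.2) among others. Levels are per exonic length unless stated. The immunosubunits lay below the constitutive catalytic subunits, with Psmb8 at 28.3 ± 4.49 TPM, Psmb10 at 25.5 ± 6.59 TPM and Psmb9 at 17.5 ± 4.79 TPM, against 140.2 ± 17.7 for Psmb5, 167.8 ± 21.1 for Psmb6 and 125.2 ± 6.17 for Psmb7. Per exonic length Psmb8 and Psmb10 did not differ beyond their spread, nor did Psmb10 and Psmb9. Per longest transcript Psmb8 was at 41.0 ± 6.36, Psmb10 at 27.1 ± 6.92 and Psmb9 at 18.1 ± 4.91 TPM, so that these gaps depend on the length used. Among the activators, Psme2 (125.8 ± 14.8 TPM) and Psme1 (107.9 ± 15.9 TPM), which form the interferon-induced ring activator, stood above the nuclear activators Psme3 (54.0 ± 4.12 TPM) and Psme4 (41.9 ± 7.96 TPM). The inhibitor Psmf1 was at 13.7 ± 1.97 TPM, and Psmc3ip was the lowest of all at 0.623 ± 0.213 TPM.

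**Figure D1:**
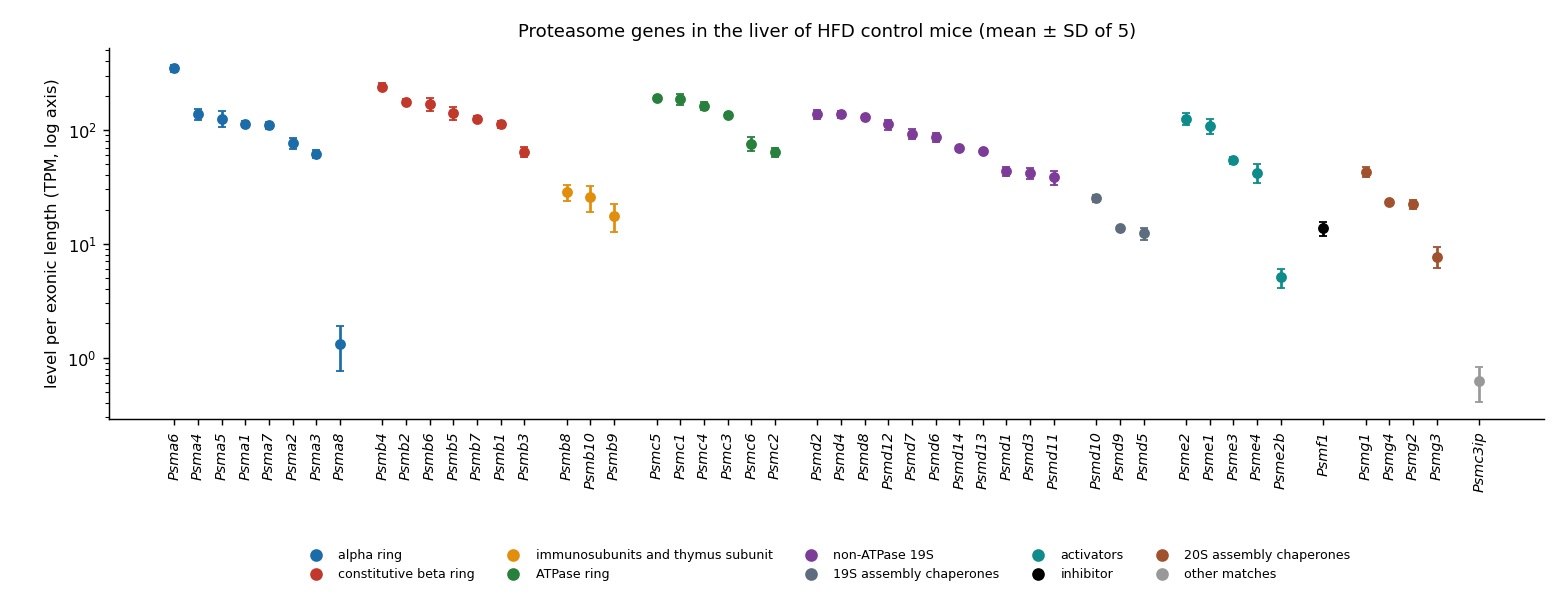
Level per exonic length (TPM, log axis) of the 49 genes in HFD control liver, grouped by role; points are means and bars SDs of 5 mice. Psma6 stands highest at 349.9 TPM, the immunosubunits lie between 17.5 and 28.3 TPM, and Psma8 and Psmc3ip lie lowest.

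Several levels rest on reads that related sequences share. Of the longest transcript of Psme2, 51.7% of 75-base windows also occur in Psme2b, its intron-less copy, and 60.2% of those of Psme2b in Psme2. For Psmb5 the share was 40.0% (pseudogene Gm3375), for Psma5 39.8%, for Psmc3ip 25.6% (Mlx, which overlaps it on the opposite strand) and for Psma3 21.3%. Levels of these genes are uncertain to the extent that reads were split or discarded. Psmd9 overlaps Hpd, a highly expressed liver gene on the opposite strand, Psmb9 overlaps Tap1 and Psmb7 overlaps Nek6 in the same way, and whether reads were counted by strand is not stated.

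Promoter sequences were at hand for 41 of the 49 genes (RefSeq, GRCm38.p6, from 250 bases before to 50 after the transcript start). The core of the antioxidant response element, TGACNNNGC, to which Nfe2l1 and Nfe2l2 bind, stood on either strand in 6 of the 41 promoters (14.6%), against 14.0% of the promoters of all 27025 genes. CCAAT, the box bound by NF-Y, stood in 14 of 41 (34.1%), against 41.1% of all, and the core of the interferon-stimulated response element (GAAA, any 2 bases, then GAAA again) in 5 of 41 (12.2%), against 3.99%. For the antioxidant core the share was close to that of all genes. The 5 promoters with the interferon core were those of Psmb3, Psmd4, Psmd9, Psme1 and Psmg4, none of them an immunosubunit. The 6 promoters with the antioxidant core are shown because they include both genes that rose and 3 of the genes that fell with the combined exposure. Each line gives the core in capitals with up to 15 bases on either side, read 5′ to 3′ along the gene's strand.
Psmb5: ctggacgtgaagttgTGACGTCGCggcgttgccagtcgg
Psmb6: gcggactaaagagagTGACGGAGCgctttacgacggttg
Psmc6: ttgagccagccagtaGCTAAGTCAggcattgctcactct
Psmd12: tctGCTGTGTCAcatttgcccccctca
Psmd9: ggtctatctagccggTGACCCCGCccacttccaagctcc
Psme4: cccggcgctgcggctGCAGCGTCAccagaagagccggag
In Psmb5 (minus strand, chr14:54618019-54618057), Psmb6 (plus strand, chr11:70525333-70525371) and Psmd9 (plus strand, chr5:123228144-123228182) the core reads along the gene, starting 47, 9 and 31 bases before the transcript start. In Psmc6 (plus strand, chr14:45329582-45329620), Psmd12 (plus strand, chr11:107479278-107479304) and Psme4 (plus strand, chr11:30771753-30771791) it reads on the opposite strand, starting 227, 247 and 7 bases before the transcript start. The sequence lies close to the start in Psmb5, Psmb6, Psmd9 and Psme4 and far upstream in Psmc6 and Psmd12. A match is a description of letters and no evidence of binding.

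The whole promoters of 4 genes are shown for the results below: Psmg3 (minus strand, chr5:139826845-139827144), the gene with the largest fall, which held none of the 3 motifs, Psmd4 (minus strand, chr3:95042565-95042864), with CCAAT or its complement and the interferon core in capitals, Psmb5 (minus strand, chr14:54617946-54618245) and Psme4 (plus strand, chr11:30771525-30771824), the gene with the largest rise, both with the antioxidant core in capitals.
Psmg3: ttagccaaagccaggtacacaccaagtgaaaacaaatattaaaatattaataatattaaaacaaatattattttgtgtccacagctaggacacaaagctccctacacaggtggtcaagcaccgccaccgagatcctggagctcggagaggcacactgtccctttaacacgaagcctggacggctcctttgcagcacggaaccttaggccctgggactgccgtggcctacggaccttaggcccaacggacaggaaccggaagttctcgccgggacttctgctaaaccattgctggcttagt
Psmd4: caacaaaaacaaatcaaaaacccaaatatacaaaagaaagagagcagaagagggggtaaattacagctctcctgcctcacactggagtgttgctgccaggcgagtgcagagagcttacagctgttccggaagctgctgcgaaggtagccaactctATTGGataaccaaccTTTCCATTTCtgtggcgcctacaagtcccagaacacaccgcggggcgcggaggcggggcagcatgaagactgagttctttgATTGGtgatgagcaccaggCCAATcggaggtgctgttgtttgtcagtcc
Psmb5: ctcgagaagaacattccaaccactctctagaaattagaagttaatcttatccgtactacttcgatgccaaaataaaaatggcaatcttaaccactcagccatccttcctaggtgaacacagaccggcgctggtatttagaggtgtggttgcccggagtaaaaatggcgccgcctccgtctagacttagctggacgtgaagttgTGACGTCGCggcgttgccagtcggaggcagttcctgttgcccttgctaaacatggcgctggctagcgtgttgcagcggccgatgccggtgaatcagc
Psme4: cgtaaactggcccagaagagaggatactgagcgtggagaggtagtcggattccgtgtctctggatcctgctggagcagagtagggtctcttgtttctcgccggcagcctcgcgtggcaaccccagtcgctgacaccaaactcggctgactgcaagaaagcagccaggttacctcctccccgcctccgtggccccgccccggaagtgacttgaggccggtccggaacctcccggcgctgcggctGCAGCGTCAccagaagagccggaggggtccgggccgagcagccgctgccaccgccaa
Psmd4 held CCAAT on the gene's strand once and on the opposite strand at 2 places, and the interferon core once on the opposite strand, 80 bases before the start.

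Aroclor alone was compared with HFD control to ask what the non-dioxin-like mixture does to hepatic transcripts. None of the 49 genes changed with Aroclor by edgeR's quasi-likelihood test (0 of 49 past an adjusted p of 0.05, against 0% of all genes tested). At an unadjusted p under 0.05 there were 4 of 49, against 17.2% of all genes, and DESeq2 called 0 of 49, against 1.2% of the genes to which it gave an adjusted p. The lowest log2 fold change (log2FC) was −0.35 ± 0.14 (SE) for Psmd4, a ubiquitin receptor of the regulatory particle, with an adjusted p of 0.239 by edgeR. Psmd4 stood at 116, 134, 138, 107 and 121 CPM in the 5 Aroclor mice and at 162, 162, 153, 144 and 163 CPM in the controls, so that the groups did not overlap. The highest was 0.18 ± 0.24 for the immunosubunit Psmb9, whose Aroclor mice (23.6, 51.1, 30.6, 20.7 and 22.7 CPM) lay on both sides of the controls (29.2, 28.7, 36.3, 18.5 and 18.4 CPM). The median over the 49 genes was −0.094, against −0.013 over all genes tested. In 39 of the 49 the log2FC was below 0, against 8043 of all 15522 genes tested. In 3 of the 49 all 5 Aroclor mice lay below all 5 controls, against 1.2% of all genes.

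PCB 126 alone was compared with HFD control in the same way for the dioxin-like congener. None of the 49 genes changed with it (0 of 49 by edgeR, against 0.116% of all genes tested). None had an unadjusted p under 0.05, against 14.7% of all genes, DESeq2 called 0, against 2.53%, and the smallest adjusted p was 0.370 by edgeR. Psmd4 again had the lowest log2FC at −0.27 ± 0.14 and Psmb9 the highest at 0.13 ± 0.24. The PCB 126 mice spread widely: Psmd4 stood at 90.8, 122, 176, 145 and 114 CPM, on both sides of the controls. The median over the 49 genes was −0.037, against −0.018 over all genes, and none of the 49 had its 5 PCB 126 mice all above or all below the controls, against 1.23% and 0.908% of all genes.

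With the combined exposure, 18 proteasome genes fell and 2 rose relative to HFD control by edgeR at an adjusted p under 0.05. The 18 are 36.7% of the 49, against 17% of all genes tested that fell, and the 2 are 4.08%, against 15.8% of all genes that rose. These shares are over all 15522 genes, which include genes with few counts. A fit of only the 8995 genes with at least 1 FPKM (a level per length) in 3 libraries and on average called 52.3% of them. In that fit 2393 of the 8995 genes were lower. Subunits of the catalytic ring, the ATPase ring and the ubiquitin-binding lid and base were among those that fell, while Psme4, the activator PA200, and the ATPase Psmc6 rose. The median log2FC was −0.24, against −0.00096 over all genes, with values from −0.98 to 0.49. In 18 genes all 5 combined mice lay below all 5 controls, against 8.14% of all genes, and in 1 gene, Psme4, they lay above, against 10.6%. The proteasome genes took 0.402% ± 0.0164 of all counts in the combined mice, 0.424% ± 0.0270 in Aroclor and 0.432% ± 0.0353 in PCB 126 mice. Of the 20 genes called, Psmb2, Psmd13, Psmc6, Psmd2 and Psmc2 fell outside the 15 largest changes and are named here after their values were seen.

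**Figure D2:**
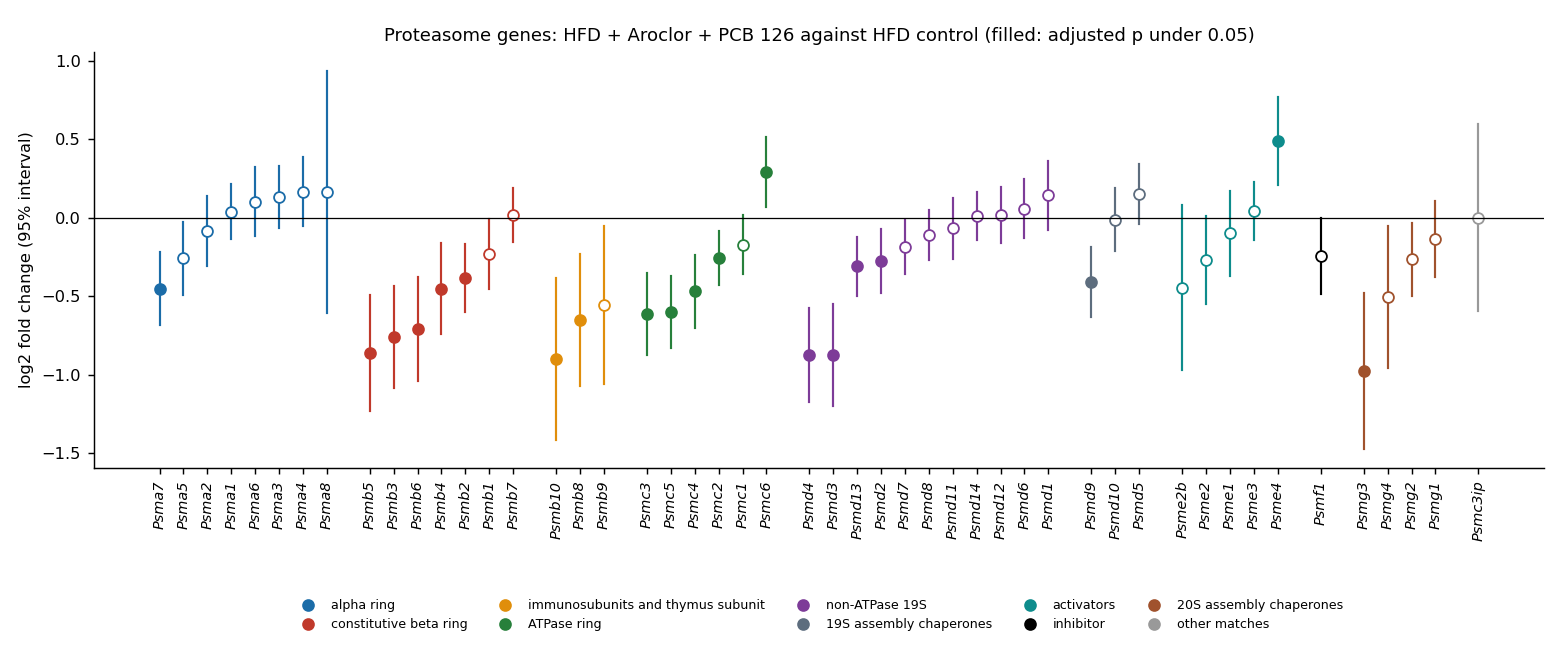
Log2FC of the 49 genes between the combined exposure and HFD control, grouped by role, with 95% intervals from edgeR; filled points passed an adjusted p under 0.05. The beta ring, the immunosubunits and the ATPase ring hold most of the filled points below 0, and Psme4 and Psmc6 are the only filled points above 0.

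In the constitutive beta ring, 5 of 7 genes fell, against 17% of all genes tested. Psmb5, which carries the chymotrypsin-like activity, stood at 57.6, 51.6, 56.9, 39.3 and 51.9 CPM in control and at 35.5, 27.1, 36.2, 17.5 and 25.3 CPM in combined mice. The highest combined mouse lay below the lowest control, the Aroclor mice spanned 39.7 to 51.7 CPM and the PCB 126 mice 34.6 to 58.8 CPM, and the log2FC was −0.86 ± 0.18 (adjusted p = 0.00175, edgeR). Psmb6, which carries the caspase-like activity, stood at 147, 127, 142, 101 and 124 CPM in control and at 90.5, 82.9, 91.3, 58.3 and 69.0 CPM in combined mice, again without overlap, with a log2FC of −0.71 ± 0.16 (adjusted p = 0.00254, edgeR). Psmb7, the trypsin-like subunit, did not follow: it stood at 168, 172, 175, 179 and 177 CPM in control and at 180, 190, 153, 178 and 181 CPM in combined mice, with a log2FC of 0.016 ± 0.081. The structural genes Psmb3 (−0.76 ± 0.15), Psmb4 (−0.45 ± 0.14) and Psmb2 (−0.38 ± 0.10) also fell. Psmb3 stood at 66.9, 59.4, 62.5, 49.8 and 62.0 CPM in control and at 39.3, 39.2, 42.1, 25.1 and 31.8 CPM in combined mice, so that the groups did not overlap. After GC correction Psmb3 (−0.79) and Psmb6 (−0.64) still passed, while Psmb5 (−0.46, adjusted p = 0.0584, edgeR), Psmb2 (−0.34) and Psmb4 (−0.33) did not. Psmb7 was then lower too (−0.42, adjusted p = 0.0271, edgeR), so that the gap between Psmb7 and the other two catalytic subunits was smaller after correction than before; the gap itself was not tested.

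The 3 immunosubunits all lay lower, 2 of them past the threshold, against 17% of all genes tested that fell. Psmb10 stood at 20.7, 18.4, 23.9, 10.9 and 15.1 CPM in control and at 13.1, 9.50, 11.4, 5.85 and 8.04 CPM in combined mice, so that the groups overlapped, with a log2FC of −0.90 ± 0.24 (adjusted p = 0.00839, edgeR). Psmb8 stood at 38.7, 44.3, 47.3, 29.9 and 35.6 CPM against 30.3, 27.6, 29.8, 17.7 and 19.2 CPM, also with overlap, and fell by 0.65 ± 0.20 on the log2 scale (adjusted p = 0.0161, edgeR). Without combined replicate 5 this became −0.57 with an adjusted p of 0.0508. Psmb9 did not pass, at −0.56 ± 0.24 (adjusted p = 0.0786, edgeR), and passed without HFD control replicate 4 or 5, HFD + Aroclor replicate 2 or combined replicate 3, with adjusted p of 0.0373, 0.0459, 0.0339 and 0.0355. Psmb8 and Psmb9 lie beside the peptide transporter genes Tap1 and Tap2 on chromosome 17, and these fell too, by 0.72 ± 0.13 and by 0.76 ± 0.17. After GC correction none of these 5 genes passed, at −0.51 for Psmb10, −0.52 for Psmb8, −0.32 for Psmb9 and −0.35 for both Tap genes.

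Set against the constitutive subunit whose place it takes, each immunosubunit kept its own pattern. Per exonic length the ratio of Psmb8 to Psmb5 was 0.202 ± 0.0222 in control, 0.242 ± 0.0753 in Aroclor, 0.229 ± 0.0252 in PCB 126 and 0.237 ± 0.0307 in combined mice (SD, n = 5 each), with all groups overlapping. The ratio of Psmb9 to Psmb6 was 0.104 ± 0.0211, 0.146 ± 0.0512, 0.124 ± 0.0149 and 0.116 ± 0.0128 in the same order, also overlapping. The ratio of Psmb10 to Psmb7 was 0.206 ± 0.0601, 0.209 ± 0.0638, 0.202 ± 0.0489 and 0.110 ± 0.0363. The combined mice lay at 0.0661 to 0.149 and the controls at 0.122 to 0.273, so these groups overlapped. The Aroclor mice, at 0.122 to 0.294, overlapped the combined mice too, while the PCB 126 mice, at 0.152 to 0.270, all lay above them. Per longest transcript the control means were 0.359 ± 0.0394 for Psmb8 to Psmb5, 0.0678 ± 0.0138 for Psmb9 to Psmb6 and 0.223 ± 0.0651 for Psmb10 to Psmb7. The size of a ratio thus depends on the length used, which scales all mice alike. Psmb10 and Psmb7 differ in GC content (56.5% and 40.8%), more than the members of the other pairs (Psmb8 52.5% and Psmb5 56.6%, Psmb9 54.1% and Psmb6 51.6%), and the part of GC content in the lower ratio was not tested.

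**Figure D3:**
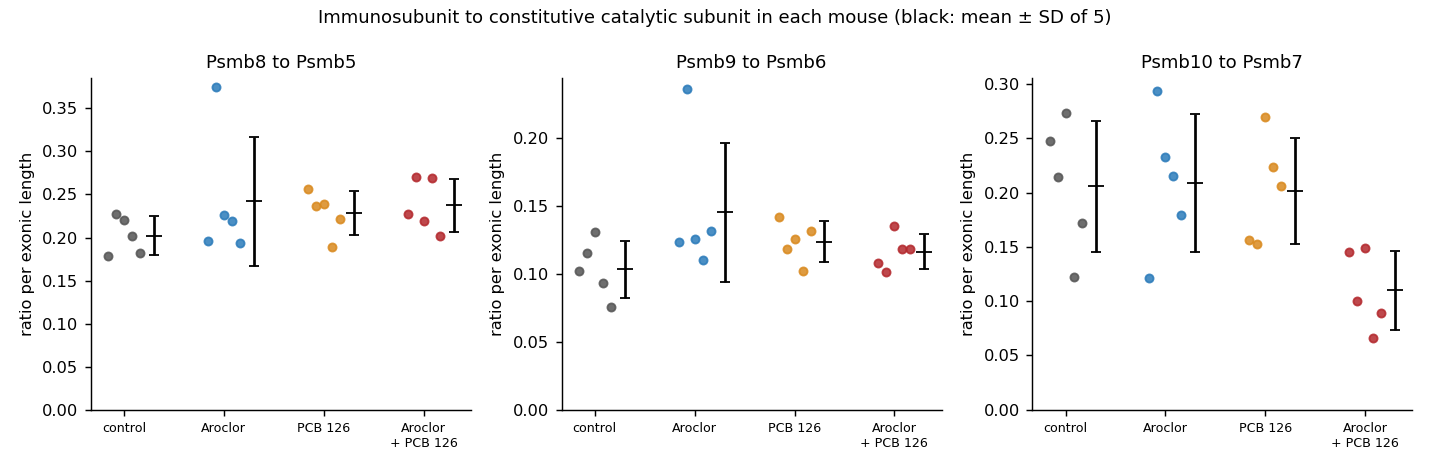
Ratio of each immunosubunit to the constitutive catalytic subunit it replaces, per exonic length, in each of the 20 mice, with mean ± SD in black. The groups overlap in the first pair of panels, where Aroclor replicate 2 stands apart. For Psmb10 to Psmb7 the combined mice overlap control and Aroclor mice but lie below all PCB 126 mice. The mean of this ratio is 0.110 in the combined exposure and 0.202 to 0.209 in the other groups.

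In the alpha ring, which gates the barrel, 1 of 8 genes fell, against 17% of all genes tested. Psma7 stood at 145, 141, 134, 133 and 129 CPM in control and at 107, 103, 107, 89.3 and 93.4 CPM in combined mice, without overlap (log2FC −0.45 ± 0.11, adjusted p = 0.00471, edgeR). After correction for GC content its log2FC was 0.0094. Psma6, the most abundant subunit gene, did not pass (0.10 ± 0.10). It stood at 169, 163, 182, 189 and 177 CPM in control and at 174, 190, 163, 208 and 208 CPM in combined mice, and the 95% interval of its log2FC ran from −0.12 to 0.32.

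In the ATPase ring, 4 of 6 genes fell and 1 rose, against 17% and 15.8% of all genes tested. Psmc5 stood at 107, 109, 112, 106 and 109 CPM in control and at 75.1, 75.2, 79.3, 59.2 and 69.2 CPM in combined mice. The Aroclor mice of this gene, at 81.7 to 97.8 CPM, lay between these groups, and the PCB 126 mice, at 77.9 to 119 CPM, covered the range of controls. Its log2FC was −0.60 ± 0.11 (adjusted p = 0.00104, edgeR). Psmc3 (−0.61 ± 0.12), Psmc4 (−0.47 ± 0.11) and Psmc2 (−0.26 ± 0.080) fell as well. After GC correction Psmc5 (−0.50) and Psmc2 (−0.67) passed, and Psmc3 (−0.30) and Psmc4 (−0.35) did not. Psmc6 went the other way, from 90.4, 98.6, 107, 127 and 115 CPM in control to 119, 133, 115, 147 and 144 CPM in combined mice, with overlap (log2FC 0.29 ± 0.11, adjusted p = 0.0409, edgeR). It passed in only 12 of the 20 fits that left out 1 mouse, its adjusted p reaching 0.181 without combined replicate 4, and its direction turned after GC correction (−0.28, adjusted p = 0.0625, edgeR). The sixth ATPase, Psmc1, had a log2FC of −0.17 ± 0.089 and did not pass.

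Among the non-ATPase subunits of the regulatory particle, 4 of 11 fell, against 17% of all genes tested. Psmd4, the ubiquitin receptor (ENSMUSG00000005625, chr3:95032694-95042614, minus strand), stood at 96.9, 86.9, 98.3, 65.0 and 79.8 CPM in combined mice, below all controls and below all Aroclor mice, with a log2FC of −0.87 ± 0.14 (adjusted p = 0.000670, edgeR). This was the smallest adjusted p of the 49 genes. Psmd3, a subunit of the lid, stood at 88.8, 87.0, 94.1, 66.1 and 87.1 CPM in control and at 55.8, 45.5, 56.6, 29.6 and 43.3 CPM in combined mice (−0.87 ± 0.15, adjusted p = 0.00102, edgeR). The highest combined mouse of Psmd3 lay below the lowest control. Psmd13 (−0.31 ± 0.088), another lid subunit, and Psmd2 (−0.27 ± 0.096), the scaffold of the base, fell less. Psmd2 did not pass without HFD control replicate 3, 4 or 5 or combined replicate 5 (adjusted p 0.0677, 0.0606, 0.0822 and 0.0589). Psmd14, the deubiquitinase that removes ubiquitin from the substrate, stood at 74.4, 77.3, 81.2, 80.9 and 82.5 CPM in control and at 74.2, 77.2, 76.5, 87.0 and 84.2 CPM in combined mice. Its log2FC was 0.011 ± 0.071, with a 95% interval from −0.14 to 0.16. Psmd11, a scaffold of the lid, had a log2FC of −0.067 ± 0.091. After GC correction Psmd4 (−0.72) and Psmd3 (−0.55) still passed, Psmd14 (−0.34, adjusted p = 0.0277, edgeR) and Psmd11 (−0.53, adjusted p = 0.00537, edgeR) were lower as well, and Psmd13 (−0.11) and Psmd2 (−0.23) did not pass.

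**Figure D4:**
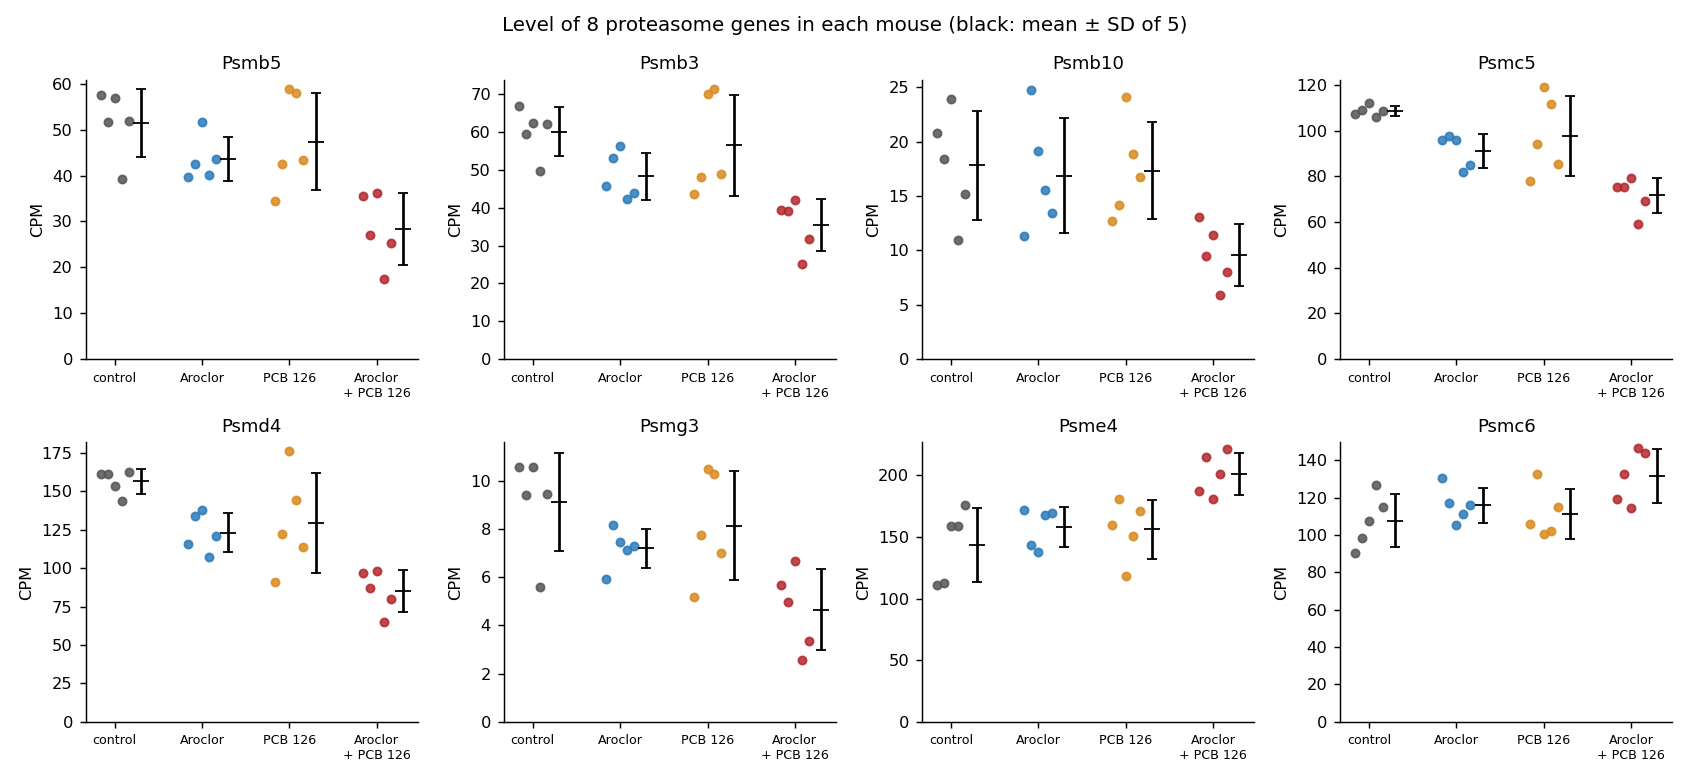
CPM of 8 proteasome genes in each of the 20 mice, with mean ± SD in black. For Psmb5, Psmb3, Psmc5 and Psmd4 every combined mouse lies below every control; for Psme4 every combined mouse lies above, and for Psmb10, Psmg3 and Psmc6 the groups overlap.

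Assembly factors and regulators gave the largest fall and the largest rise, beside 17% of all genes tested that fell and 15.8% that rose. Psmg3, a chaperone of alpha ring assembly, stood at 10.6, 9.42, 10.6, 5.61 and 9.46 CPM in control and at 5.68, 4.98, 6.68, 2.54 and 3.36 CPM in combined mice (−0.98 ± 0.23, adjusted p = 0.00413, edgeR). HFD control replicate 4 alone overlapped the combined mice. Psmg3 was the only one of the 4 Psmg chaperones that passed. Psmd9, a chaperone of base assembly, fell (−0.41 ± 0.10, adjusted p = 0.00569, edgeR), the only one of 3 such chaperones. After GC correction Psmg3 (−0.97) passed and Psmd9 (−0.38, adjusted p = 0.0554, edgeR) did not. Psme4 stood at 111, 113, 159, 159 and 176 CPM in control and at 188, 215, 181, 201 and 221 CPM in combined mice, so that every combined mouse lay above every control and above every Aroclor mouse (138 to 172 CPM). Its log2FC was 0.49 ± 0.13 (adjusted p = 0.00854, edgeR), and 0.18 after GC correction (adjusted p = 0.382, edgeR). The other 4 activator genes, Psme2b among them, did not pass, with log2FC of −0.099 ± 0.13 for Psme1, −0.27 ± 0.13 for Psme2 and 0.044 ± 0.087 for Psme3. The inhibitor Psmf1 had a log2FC of −0.24 ± 0.11 (adjusted p = 0.105, edgeR), and of −0.33 with an adjusted p of 0.0403 without combined replicate 3. Psmc3ip, at under 1 CPM in every mouse, had a log2FC of 0.0010 ± 0.28.

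The log2FC with the combined exposure followed the GC content of the transcripts. Across the 49 genes Pearson's r was −0.70 and Spearman's rho −0.75, and r was −0.54 across 15516 genes. These are correlations across genes of the same 10 libraries, which are not independent replicates. Of the 22 genes with a GC content of 50% to 60%, 16 fell, and of the 27 genes below 50%, 2 fell and 2 rose. These counts stand beside 17% of all genes tested that fell and 15.8% that rose, at any GC content. The shares of all genes that fell or rose within these GC ranges were not counted. Psme4 has a GC content of 43.9% and Psmc6 of 37.0%, the lowest of the 49, while Psmd3 (55.4%), Psmb5 and Psmb10 lie at the high end. In each bin of GC content the median of the proteasome genes lay below that of all genes at 1 CPM or more, proteasome genes included. The medians were −0.067 (only 3 proteasome genes) against 0.55 at 35% to 40% GC, 0.040 (9 genes) against 0.37 at 40% to 45% and −0.17 (15 genes) against 0.14 at 45% to 50%. At 50% to 55% they were −0.45 (15 genes) against −0.18, and at 55% to 60% −0.61 (7 genes) against −0.53. The difference was smallest in the bin richest in GC, and was not tested.

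**Figure D5:**
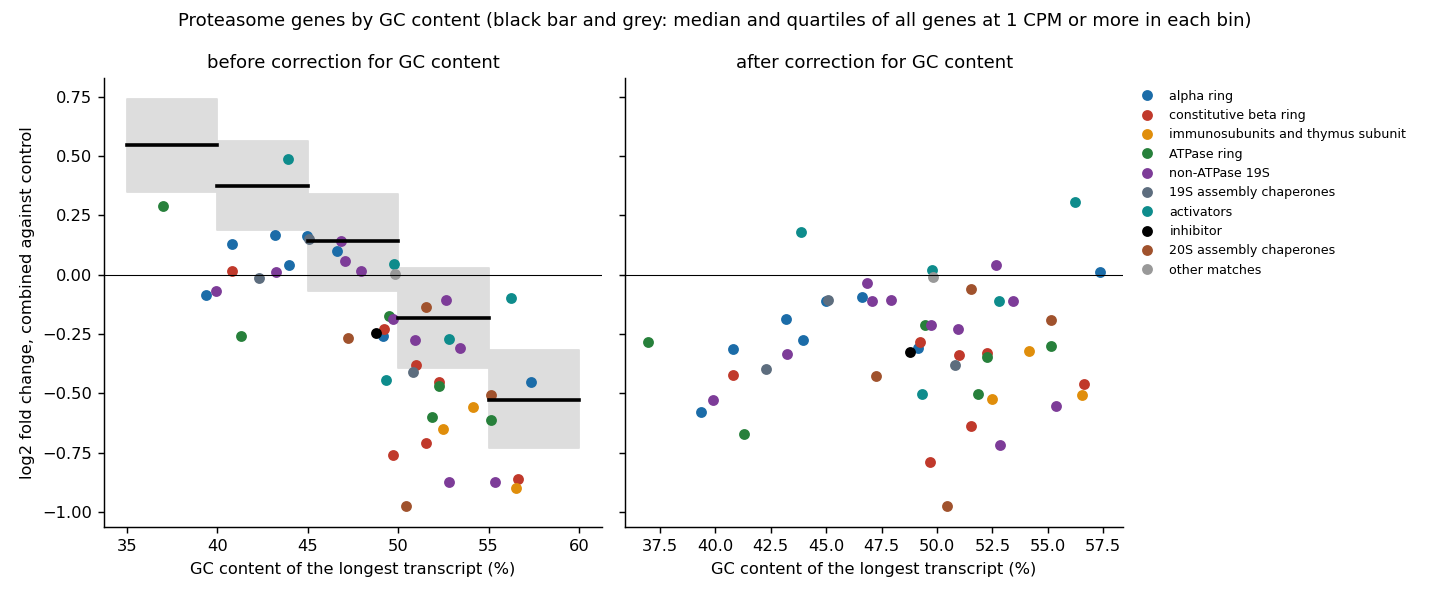
Log2FC of the 49 genes between the combined exposure and HFD control against GC content, before (left) and after (right) removal of a smooth GC trend from each library, colored by role. On the left most genes lie at or below the median of all genes of their bin (black bars, quartiles in grey); on the right the slope is gone (r = 0.079) and most points lie below 0.

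After a smooth trend over GC content was removed from each library, 12 of the 49 genes were lower and none was higher in the combined exposure. The 12 are 24.5% of the 49, against 3.77% of all genes tested that were lower and 2.41% that were higher, and the median log2FC was −0.31, against −0.023 over all genes. Which genes passed changed in part. The 7 that fell both before and after were Psmb3, Psmb6, Psmc2, Psmc5, Psmd3, Psmd4 and Psmg3, all by edgeR at an adjusted p under 0.05. The other 5 were GC-poor genes that had not passed before: Psma2 (−0.58), Psmb7, Psmd10 (−0.40), Psmd11 and Psmd14. Psma2 and Psmd10, neither in the 15 largest changes, are named after their values were seen. In 16 genes the sign changed, among them Psmc6 and Psma7, and the share of all genes that changed sign was not counted. With each library's own GC slope as a term of the fit, which did not overlap between control (0.0804 to 0.386) and combined mice (−0.503 to −0.112), 0 of 49 passed, against 2.15% of all genes, and the median was −0.040, against −0.0021 over all genes. Of the 49 log2FC, 44 were below 0 after GC correction, against 34 before. Before correction 7766 of all 15522 genes tested were below 0. Their number after correction was not counted, so that 44 has no such value beside it. The 49 values come from the same mice and are not independent. For the single exposures the same correction did not remove the relation to GC content across the 49 genes. Pearson's r went from −0.37 to 0.42 with Aroclor and from −0.022 to 0.57 with PCB 126.

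The combined exposure was compared with each single exposure to ask what the second PCB adds. Against Aroclor, none of the 49 genes passed by edgeR (0 of 49, against 0.412% of all genes), with 18 at an unadjusted p under 0.05, against 23.4% of all genes, and 8, all lower, by DESeq2, against 12.6% of the genes to which it gave an adjusted p. The median log2FC was −0.12, against 0.022 over all genes. Psmd4 had −0.53 ± 0.14 (adjusted p = 0.0631, edgeR) and Psmb10 −0.82 ± 0.24 (adjusted p = 0.0807, edgeR). Without combined replicate 3, 8 genes passed, against 6.69% of all genes, without HFD control replicate 4 there were 4, against 3.34%, and without combined replicate 1 there were 2, against 1.88%.

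Against PCB 126, 16 genes were lower and none higher with the combined exposure by edgeR. They are 32.7% of the 49, against 11% of all genes tested that were lower and 5.64% that were higher, and the median was −0.15, against 0.070 over all genes. The 16 were all among the 18 that fell against HFD control, and both comparisons use the same combined mice. Psmd3 had a log2FC of −0.77 ± 0.15 (adjusted p = 0.0136), Psmb5 of −0.74 ± 0.17 (adjusted p = 0.0144), Psmd4 of −0.60 ± 0.14 (adjusted p = 0.0144), Psmd9 of −0.48 ± 0.10 (adjusted p = 0.0140) and Psmb10 of −0.86 ± 0.24 (adjusted p = 0.0262), all by edgeR. Psme4 did not pass (0.36 ± 0.13, adjusted p = 0.0620, edgeR). This count rests on single mice of both groups. Without PCB 126 replicate 3 no gene passed, against 0.0258% of all genes, and without PCB 126 replicate 4 there were 3, against 1.86%. Without combined replicate 5 there were 2, against 1.74%, and without combined replicate 4 there were 8, against 6.19%. PCB 126 replicates 3 and 4 were the 2 highest of their group for Psmb3, Psmb5 and Psmd3. After GC correction 0 of 49 passed, as did 0% of all genes.

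The interaction tests whether the effect of the combined exposure equals what the log2 effects of Aroclor and of PCB 126 add up to. None of the 49 genes passed (0 of 49 by edgeR, against 0% of all genes; 4 at an unadjusted p under 0.05, against 11.9%; 0 by DESeq2, against 0.00655%). The smallest adjusted p was 0.343 (edgeR), for Psmb9. The falls with the combined exposure were therefore not shown to differ from this sum.

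Partner genes of the proteasome were looked at from lists chosen by function. The counts below stand beside 15.8% of all genes tested that rose and 17% that fell with the combined exposure. Nfe2l1 had a log2FC of −0.24 ± 0.15 (adjusted p = 0.225) and Nfe2l2 of 0.090 ± 0.12 (adjusted p = 0.629) with the combined exposure, and neither passed by edgeR. Of the 5 genes of the Nfe2l1 axis, Ngly1, the enzyme that deglycosylates Nfe2l1, rose (0.56 ± 0.12), as did Akirin2, the importer of proteasomes into the nucleus (0.41 ± 0.10). Of 5 further subunits and cofactors, Adrm1, a second ubiquitin receptor of the regulatory particle, fell by 0.92 ± 0.15 on the log2 scale. It stood at 33.2, 31.9, 37.7, 24.7 and 33.5 CPM in control and at 20.5, 17.8, 19.4, 12.0 and 15.3 CPM in combined mice. The deubiquitinases that dock on the particle, Usp14 (0.49 ± 0.13) and Uchl5 (0.31 ± 0.11), rose. Of 13 ubiquitin and shuttling genes, the polyubiquitin gene Ubb (−0.67 ± 0.15) and the shuttle gene Ubqln4 (−0.26 ± 0.092) fell, and Ube3a (0.81 ± 0.23), Zfand5 (0.66 ± 0.12), Ube3c (0.42 ± 0.15) and Rad23b (0.36 ± 0.12) rose. Of these calls, those of Rad23b and Ubqln4 were each lost in 5, that of Uchl5 in 8 and that of Ube3c in 9 of the 20 fits that left out 1 mouse (adjusted p by edgeR up to 0.102 for Rad23b without HFD control replicate 2, 0.103 for Ubqln4 without HFD control replicate 5, 0.162 for Uchl5 without combined replicate 4 and 0.108 for Ube3c without HFD control replicate 1). Of 8 interferon and MHC class I genes, Erap1 rose (0.76 ± 0.15) and Tap1 and Tap2 fell. After GC correction Adrm1 (−0.59) still passed by edgeR. Sem1, a small subunit of the lid named after its values were seen, was then lower too (−0.73, adjusted p = 0.0252, and −0.36 with an adjusted p of 0.0518 before, edgeR). No other gene of these lists passed after GC correction, and of those named here Uchl5 (−0.21), Usp14 (−0.00039), Ubqln4 (0.10), Nfe2l1 (0.021) and Nfe2l2 (−0.097) changed sign.

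Leukocytes express the immunosubunits at high levels, so their markers are given beside these genes. Of the 6 leukocyte markers, Ptprc (0.78) and Adgre1 (0.82) rose with the combined exposure by edgeR and none fell. Among all genes tested 15.8% rose and 17% fell. The log2FC of the 6 was above 0 in 3 and below 0 in 3 (median 0.017). The summed level of the 6 was 92.1 to 193.6 CPM in control, 111.1 to 194.9 in Aroclor, 63.9 to 145.5 in PCB 126 and 104.3 to 144.8 CPM in combined mice, and no marker was at 0. Markers of other liver cells also moved. Of the 6 hepatocyte markers Apoa1 (−0.78) and Ttr (−0.70) fell, of 3 stellate cell markers Lrat (0.85) rose and Des (−1.38) fell, of 3 endothelial markers Stab2 (−0.50) fell, and of 2 cholangiocyte markers none passed. The summed levels in control and combined mice were 93843.3 to 101231.9 and 91244.0 to 118792.7 CPM for hepatocytes, 17.4 to 36.5 and 28.2 to 42.4 CPM for stellate cells, 59 to 106.5 and 73.5 to 85.4 CPM for endothelial cells and 2.1 to 5.0 and 1.4 to 4.0 CPM for cholangiocytes, so that all of these ranges overlapped. After GC correction Ttr (−0.90) alone of all these markers passed. The part of cell composition in the proteasome results was not tested.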

How the data were processed

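Livers were snap frozen, RNA was isolated with an RNeasy kit and stranded mRNA libraries were sequenced in 2 runs of 75 cycles. The authors deposited raw counts per Ensembl gene for the 20 libraries, made, per the labels and methods, with FastQC 0.10.1, STAR 2.6 (GRCm38.p6) and HTSeq 0.10.0, without trimming; the annotation release and strand setting are not given in the sources used here. All columns were matched to samples by their names. For PCB 126 replicate 2 the number in the label differs between its parts and the title was followed. Symbols, gene positions, exonic length and GC content came from GENCODE M21 (GRCm38). The proteome and RNA modifications were not analysed here.

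Counts were normalized by TMM and fitted with edgeR 4.0.16 (R 4.3.3) over the 15522 genes whose counts summed to 10 or more, with 1 coefficient per group and 16 residual degrees of freedom. Contrasts were tested by its quasi-likelihood test (two-sided), with p-values adjusted by Benjamini and Hochberg's method over all genes tested, at 0.05; log2FC values are given ± SE. The methods used DESeq2 (version 1.42.0 here), which was run as an alternative. GC correction removed from each library a spline (6 degrees of freedom) over the GC content of the longest transcript, through offsets. The spline was fitted to log2 CPM less the gene's mean over all libraries. TPM and ratios are descriptions. The script was tested on simulated data. The genes and lists were chosen with earlier results of these data known, and some genes of the ubiquitin list are not reported here. Genes named with values were those past the threshold against HFD control (up to 15 by size), the catalytic and activator genes and some others listed by role, the highest and lowest per comparison and per level, and Psmc3ip. Other alternatives were upper-quartile and RLE normalization, other filters (among them at least 1 FPKM in 3 libraries), a threshold of 0.01, only the groups compared, leaving out each mouse, length in the correction, and the replicate number as a block. Within groups, the counts of all 40 pairs of libraries differed beyond sampling noise (chi-square of 19.66 or more for each degree of freedom), and each library was taken as 1 mouse. At these depths, errors cover counting and the spread between mice.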

Additional observations from a re-analysis of the deposited data

Results flagged for a closer look

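Groups of 5 mice were searched for a mouse far from the other 4, for the named proteasome genes and the 3 ratios. This happened in 7 of 136 groups (5.15%), and chance gives about 1 in 20. In HFD + PCB 126, replicate 3 stood high for Psmb9 (39.0 CPM, the next mouse at 27.9) and for Psme2 (117.8 CPM, the next at 87.3), both genes of the interferon-induced proteasome. In the same group, replicate 1 stood low for Psmd2 (181.6 CPM, the next at 221.3). HFD control replicate 4 stood low for Psmd3 (66.1 CPM, the next at 87.0) and for Psmg3 (5.61 CPM, the next at 9.42), and both genes nevertheless fell with the combined exposure in each of the 20 fits that left out 1 mouse. HFD + Aroclor replicate 2 stood high for the ratio of Psmb8 to Psmb5 (0.374, the next at 0.226) and of Psmb9 to Psmb6 (0.236, the next at 0.131), and also had the highest CPM of Psmb8, Psmb9 and Psmb10 of all 20 mice. What sets these mice apart was not tested.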

How the results depend on the processing

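The combined exposure changed 20 proteasome genes relative to HFD control, and 17 to 23 with each mouse left out in turn (median log2FC −0.29 to −0.22). Of all genes, 25.2% to 36.9% were called in these fits. The count was 12 with GC correction (against 6.18% of all genes), 13 with GC and length correction (6.26%) and 0 with the GC slope as a covariate (2.15%, median −0.040). It lay within 1.5 times of 20 under the other alternatives. Against Aroclor, 0 became 1 with upper-quartile normalization (against 1.62% of all genes) or filterByExpr (2.27%), 5 with the FPKM filter (7.07%), 6 with the replicate block (3.06%), 8 with DESeq2 (12.6%), and 0 to 8 with each mouse left out (median −0.18 to −0.083). Against PCB 126, 16 became 0 with GC correction (median −0.30), with GC and length correction or with the GC slope (median −0.017), each against 0% of all genes. At an adjusted p under 0.01 (edgeR) the count was also 0. With GC correction and replicate block it was 8 (against 3% of all genes, median −0.28). With each mouse left out it was 0 to 18 (0.0258% to 22.1% of all genes, median −0.19 to −0.13). The cause was not tested. For the single exposures and the interaction 0 was called under every alternative run, with medians of −0.13 to −0.076 (Aroclor) and −0.082 to −0.0015 (PCB 126) with each mouse left out.

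Mice of different groups share only a replicate number: 14 of 30 same-numbered pairs had a correlation of deviations over 0.1 (range −0.154 to 0.765). With the replicate block 21 genes were called against HFD control (34.1% of all genes) and 17 against PCB 126 (20.1% of all genes). As ratios of counts without length, Psmb8 to Psmb5 was 0.761, 0.910, 0.860 and 0.893, Psmb9 to Psmb6 0.202, 0.285, 0.242 and 0.228, and Psmb10 to Psmb7 0.103, 0.104, 0.1005 and 0.0549 (control, Aroclor, PCB 126, combined), since these values omit length.

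The log2FC against HFD control turned sign in genes near 0 or with GC correction. With DESeq2 it was Psmd14 −0.0052 and Psmb7 −0.0015; with RLE size factors Psmc3ip −0.015, Psmd14 −0.0066 and Psmb7 −0.0016; with upper-quartile normalization Psmc3ip −0.015, Psmd14 −0.0091 and Psmb7 −0.0085; in a fit of only the groups compared Psmc3ip −0.021, Psmd14 −0.0069 and Psmb7 −0.00087; with the replicate block Psmc3ip −0.024. With GC correction it was Psmb7 −0.42, Psmd14 −0.34, Psmc6 −0.28, Uchl5 −0.21, Nfe2l2 −0.097, Psma6 −0.094, Psmc3ip −0.011, Usp14 −0.00039, Psma7 0.0094, Nfe2l1 0.021, Ubqln4 0.10 and Psme1 0.31. With GC correction and replicate block it was Psmb7 −0.42, Psmd14 −0.33, Psmc6 −0.28, Uchl5 −0.19, Psma6 −0.090, Nfe2l2 −0.079, Psmc3ip −0.043, Psma7 0.010, Nfe2l1 0.030, Ubqln4 0.11 and Psme1 0.32. With GC and length correction it was Psmb7 −0.40, Psmd14 −0.30, Psmc6 −0.26, Uchl5 −0.16, Nfe2l2 −0.079, Usp14 −0.047, Psma7 0.0086, Ubqln4 0.091 and Psme1 0.34. With the GC slope as a covariate it was Psmc6 −0.24, Ube3c −0.17, Usp14 −0.16, Ngly1 −0.16, Psmd14 −0.16, Psme3 −0.16, Ube3a −0.15, Psme4 −0.13, Psma6 −0.11, Psmb7 −0.098, Rad23b −0.0052, Psmc3 0.021, Psmb2 0.039, Psma7 0.041, Ubb 0.060, Psmc4 0.071, Psmb4 0.089, Psmb3 0.10, Psmb5 0.15, Psme1 0.16, Psme2 0.16, Psmb8 0.18, Psmb6 0.19, Psmf1 0.24, Psmb10 0.30, Psmb9 0.31 and Psmg3 0.31, and against PCB 126 Psme4 −0.11, Psmd4 0.017, Psmb5 0.050 and Psmb10 0.083. With each mouse left out, the log2FC ran from −0.039 to 0.046 for Psmb7, −0.16 to 0.20 for Psmc3ip, −0.075 to 0.036 for Psmd14 and −0.0069 to 0.076 for Psme3, and for Psmb9 from −0.11 to 0.32 with Aroclor and from −0.0075 to 0.27 with PCB 126. Depth limits Psmc3ip, at under 1 CPM in every mouse, and Psma8, at 0.492 to 2.54 CPM.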
